A study of Mus musculus with 8 samples.

Results

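Guanylate-binding proteins (GBPs) are large GTPases of the dynamin superfamily, and their genes are among the most strongly interferon-induced genes of the mouse. The 9 genes described here, Gbp2, Gbp3, Gbp4, Gbp5, Gbp6, Gbp7, Gbp8, Gbp9 and Gbp10, were chosen by name as the GBP family and matched to the files by Ensembl identifier. They are 9 of the 55487 genes listed, and the rule that takes them uses no measured value. Of the 9, 7 passed the filter of at least 1 FPKM in at least 4 libraries (FPKM, the fragments of a gene divided by its transcript length and by the size of the library), while Gbp5 and Gbp10 did not. Gbp9 passed only through the vehicle libraries, so the counts of genes lower with tacrolimus were taken from a fit without the filter, which holds all 9. Where a value comes from the 7 filtered genes, this is said.

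The series compared CD8+ T cells from tumors of mice given the calcineurin inhibitor tacrolimus (FK506) with those of mice given vehicle. The mice were C57BL/6 and carried subcutaneous B16F10 melanoma, a pigmented mouse tumor line. Dosing was intraperitoneal, with 3 mg/kg tacrolimus or with vehicle alone, at intervals of 5 days, from a tumor volume near 50 mm3 reached 7 to 9 days after the cells were injected. The tumors were harvested 6 days into treatment, and cells of 4 mice per group were sorted by flow cytometry as CD8+ tumor-infiltrating lymphocytes, giving 4 tacrolimus and 4 vehicle libraries.

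Interferon gamma, which activated CD8+ T cells and natural killer cells secrete, binds its receptor on the same and neighbouring cells and activates the kinases JAK1 and JAK2. Signaling from the receptor acts on GAS elements and on interferon-stimulated response elements (ISRE), which IRF proteins bind, in the promoters of GBP genes. The proteins assemble on membranes of pathogen-containing vacuoles and on cytosolic bacteria and take part in inflammasome activation, and T cells, macrophages and tumor cells can all express them. Tacrolimus, through the immunophilin FKBP12, blocks calcineurin and with it the NFAT factors that drive cytokine genes such as Ifng in T cells.

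In GRCm38 the family lies in 2 clusters of protein-coding genes. The chromosome 3 cluster, on the plus strand, holds Gbp5 (chr3:142493978-142522344), Gbp7 (chr3:142530342-142550149), Gbp3 (chr3:142560026-142573209) and Gbp2 (chr3:142620602-142638008). The chromosome 5 cluster, on the minus strand, holds Gbp8 (chr5:105014150-105139540), Gbp9 (chr5:105077630-105139539), Gbp4 (chr5:105115767-105139586), Gbp10 (chr5:105215699-105239533) and Gbp6 (chr5:105270702-105293698). RefSeq promoter entries of GRCm38.p6 matched 4 of the 9 genes, all on chromosome 3. They are shown because the family is known as an interferon target and the letters of the elements can be read in them. Each stretch below lies upstream of a RefSeq transcript start on the plus strand, and capitals mark the ISRE core, searched as GAAANNGAAA on both strands, which here reads TTTCNNTTTC.
Gbp2, chr3:142620594-142620623: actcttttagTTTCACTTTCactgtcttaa
Gbp3, chr3:142559989-142560018: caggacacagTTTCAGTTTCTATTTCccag
Gbp5, chr3:142496759-142496788: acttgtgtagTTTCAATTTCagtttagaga
Gbp7, chr3:142530273-142530302: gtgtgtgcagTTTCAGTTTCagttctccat
The core began 59 bases before the start in Gbp2, 45 in Gbp3, 165 in Gbp5 and 53 in Gbp7, and Gbp3 held 2 overlapping cores. All 4 genes had at least 1 core in the 250 bases before a start, against 974 of all 32817 RefSeq windows of that length, or 2.97%. A further start annotated for Gbp3 had none in its window. The windows of Gbp2, Gbp3 and Gbp5 overlap annotated exons of the same gene, so they are not wholly upstream of it. The Gbp7 window overlaps no exon of Gbp7.

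The GAS letters, TTCNNNGAA, which read the same on both strands, were in the windows of Gbp5 and Gbp7 only, at 2 places in each, and in 7.01% of all windows. Both motifs together were in 0.329% of all windows, and no GAS match overlapped an ISRE match in these genes. The Gbp7 stretch is printed in full because it holds all 3 matches within 83 bases, with the GAS letters and the ISRE core in capitals.
Gbp7, chr3:142530220-142530302: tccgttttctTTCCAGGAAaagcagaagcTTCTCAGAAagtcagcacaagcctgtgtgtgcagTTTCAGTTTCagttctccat
A match describes letters and not a bound site.

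The libraries were checked against the label of sorted CD8+ cells. Transcripts of T cells were present in all 8, but melanoma markers were higher, with a mean log2(FPKM + 1) over 10 of 10 genes of 8.59 to 8.98 with tacrolimus and 8.49 to 9.27 with vehicle, above the T cell marker level of every library. T cell markers, 16 of 16 tested and 16 lower, were at 2.26 to 4.67 with tacrolimus and 4.70 to 6.93 with vehicle, without overlap, and Cd8a was at 3.40 to 33.22 and 36.91 to 152.99 FPKM. Macrophage and monocyte markers, 14 of 14 tested and 14 lower, were at 3.03 to 4.11 and 3.70 to 5.80. Dendritic cell markers (5 of 8 tested) were at 2.12 to 2.78 and 2.37 to 3.94, natural killer cell markers (3 of 5) at 1.91 to 2.91 and 2.58 to 4.47, neutrophil markers (2 of 5) at 2.88 to 4.54 and 3.95 to 7.39, endothelial and fibroblast markers (6 of 8) at 2.42 to 2.85 and 2.48 to 3.11, and the B cell marker tested (1 of 4) at 0.73 to 1.75 and 0.99 to 2.13. Ncr1 and Klra8 were listed at 0 in 4 libraries each, Tek in 3 and Ly6g in 6. Vehicle replicate 1 had the highest T cell and macrophage levels and tacrolimus replicate 2 the lowest.

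All 9 genes were lower on average in the tacrolimus libraries, and 5 of them (Gbp2, Gbp3, Gbp6, Gbp8 and Gbp9) did not overlap between the groups, but none reached an adjusted p under 0.05. Over all 28614 genes with a value above 0 in any library, 62.7% were lower on average on the log2 scale and 5.32% were lower without overlap. The summed level of the 9 genes was 11.86, 7.36, 9.73 and 9.30 FPKM in tacrolimus replicates 1 to 4. In vehicle replicates 1 to 4 it was 52.9, 21.4, 24.7 and 24.25 FPKM. The groups did not overlap in this sum, and vehicle replicate 1 stood far above the other vehicle libraries. The means were 9.56 ± 1.85 FPKM with tacrolimus and 30.8 ± 14.8 FPKM with vehicle (SD, n = 4 each), a vehicle to tacrolimus ratio of 3.22, or 2.45 without vehicle replicate 1. In bulk RNA, fewer cells of a type and less RNA per cell cannot be told apart, so these levels are per library and not per cell.

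**Figure D1:**
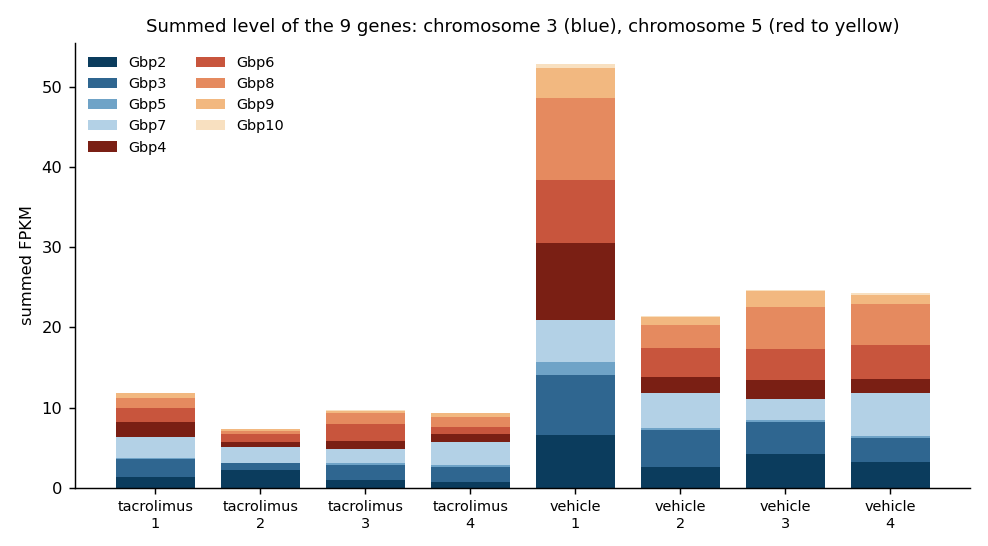
Stacked bars show the FPKM of the 9 genes in each of the 8 libraries (x axis, group and replicate; y axis, summed FPKM), with chromosome 3 genes in blue and chromosome 5 genes in red to yellow. The 4 tacrolimus bars reach 7.36 to 11.86 FPKM and the 4 vehicle bars 21.4 to 52.9 FPKM, with vehicle replicate 1 the highest.

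The chromosome 5 genes took a smaller share of the sum with tacrolimus than with vehicle in the means, although the libraries overlapped. The 4 chromosome 3 genes summed to 5.475 ± 0.693 FPKM with tacrolimus and 13.9 ± 4.71 FPKM with vehicle, a ratio of 2.54 (2.12 without vehicle replicate 1). The 5 chromosome 5 genes summed to 4.09 ± 1.41 FPKM and 16.9 ± 10.2 FPKM, a ratio of 4.13 (2.90 without vehicle replicate 1). The chromosome 3 share ranged from 49.6% to 68.3% in the tacrolimus libraries and from 39.7% to 55.4% in the vehicle libraries. This difference in share was not tested.

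Among the chromosome 3 genes, Gbp2 encodes a prenylated GBP that coats vacuoles of intracellular parasites and bacteria. Its level was 1.35, 2.19, 0.94 and 0.76 FPKM in tacrolimus replicates 1 to 4 and 6.59, 2.63, 4.21 and 3.25 FPKM in vehicle replicates 1 to 4. The groups did not overlap, and the highest tacrolimus library, replicate 2, lay just under the lowest vehicle library, also a replicate 2. The means were 1.31 ± 0.637 and 4.17 ± 1.74 FPKM, and the difference on the log2(FPKM + 1) scale, with vehicle subtracted from tacrolimus, was -1.14 with an SE of 0.29 (limma, adjusted p = 0.183).

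Gbp3 is another interferon-induced member of the cluster. It was at 2.18, 0.88, 1.94 and 1.79 FPKM with tacrolimus and at 7.45, 4.61, 4.01 and 2.94 FPKM with vehicle. Every vehicle library lay above every tacrolimus library, with tacrolimus replicate 2 the lowest and vehicle replicate 1 the highest. The means were 1.70 ± 0.568 and 4.75 ± 1.93 FPKM and the log2 difference was -1.06 with an SE of 0.28 (limma, adjusted p = 0.187).

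Gbp7 encodes a member known in macrophages for its part in assembling the phagocyte NADPH oxidase on bacterial vacuoles. Its values were 2.59, 1.94, 1.79 and 2.84 FPKM with tacrolimus and 5.25, 4.38, 2.60 and 5.32 FPKM with vehicle. The groups overlapped, since vehicle replicate 3 at 2.60 FPKM was below tacrolimus replicate 4 at 2.84 FPKM. Of the 7 genes that passed the filter it had the difference nearest to 0, at -0.69 on the log2 scale with an SE of 0.24 (limma, adjusted p = 0.214). It was also the only one of the 9 genes for which vehicle replicate 1 was not the highest library, and the only one at 1 FPKM or more in all 8 libraries.

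Gbp5, a prenylated member known for its part in NLRP3 inflammasome activation, was hardly detected. It was at 0.24, 0.02, 0.16 and 0.29 FPKM with tacrolimus and at 1.69, 0.23, 0.24 and 0.32 FPKM with vehicle. Only vehicle replicate 1 stood apart, and the other 3 vehicle libraries lay within or just above the tacrolimus range. The vehicle mean of 0.62 FPKM was 0.263 FPKM without that library, and the log2 difference in the fit without a filter was -0.38 with an SE of 0.25 (limma, adjusted p = 0.641), or -0.11 without vehicle replicate 1.

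**Figure D2:**
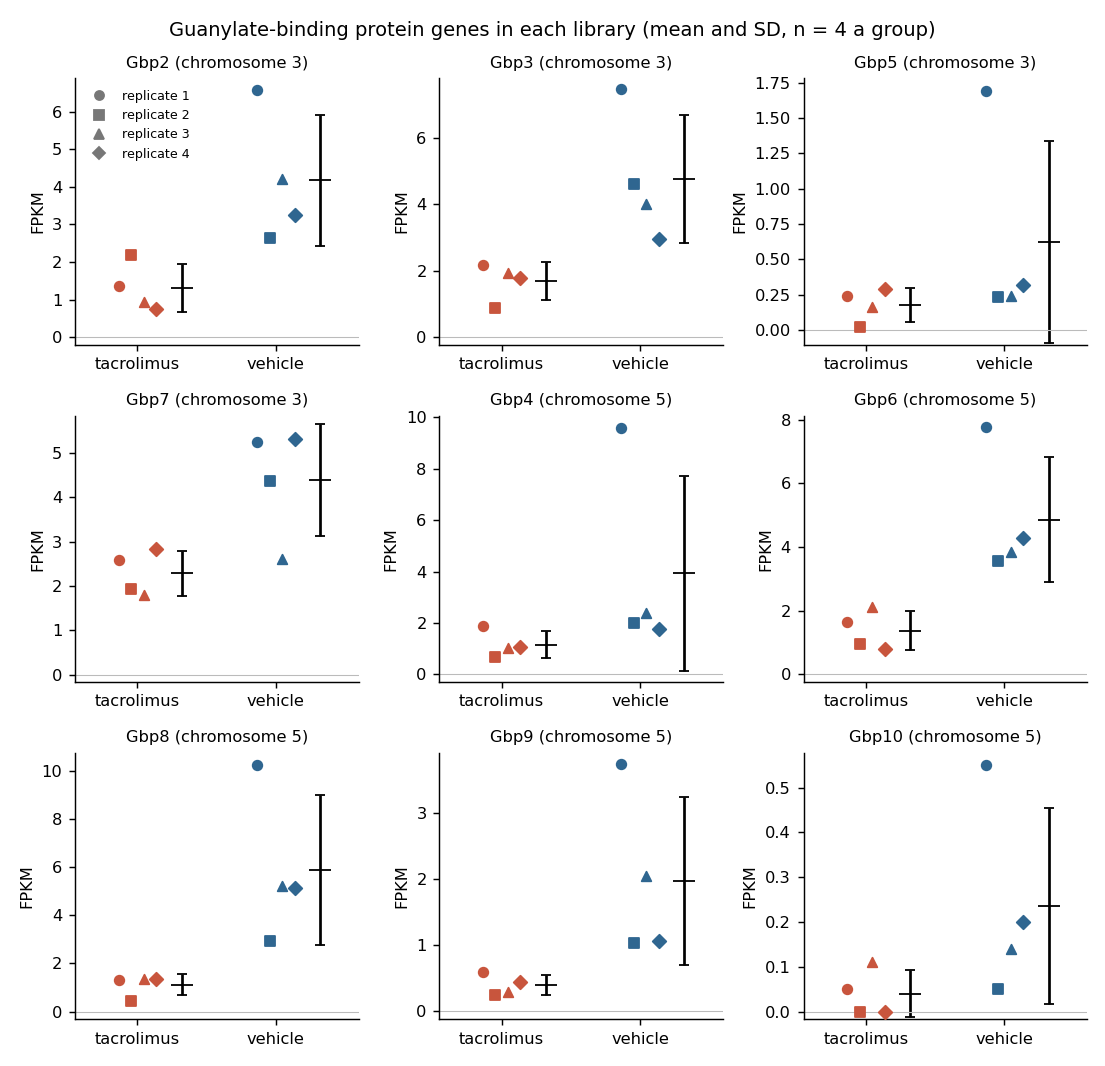
Each panel plots 1 gene, with its FPKM (y axis, a linear scale of its own) in the 4 tacrolimus and 4 vehicle libraries (x axis); point shapes are replicate numbers and the black bar is the mean with its SD. Vehicle replicate 1 is the highest point in every panel but that of Gbp7, and the groups do not overlap for Gbp2, Gbp3, Gbp6, Gbp8 and Gbp9.

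Among the chromosome 5 genes, Gbp8 had the lowest difference of the family. It was at 1.3, 0.45, 1.37 and 1.33 FPKM with tacrolimus and at 10.26, 2.92, 5.23 and 5.12 FPKM with vehicle. The groups did not overlap, with tacrolimus replicate 2 the lowest and vehicle replicate 1 the highest library. The means were 1.11 ± 0.443 and 5.88 ± 3.11 FPKM, and the log2 difference was -1.63 with an SE of 0.32 and a 95% confidence interval of -2.35 to -0.91 (limma, adjusted p = 0.179). From the lowest difference upward, Gbp8 stood at rank 106 of the 13032 genes tested.

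Gbp6 and Gbp10 have been named with Gbp7 in the defence of macrophages against mycobacteria. Gbp6 was at 1.66, 0.94, 2.11 and 0.79 FPKM with tacrolimus and at 7.78, 3.56, 3.84 and 4.27 FPKM with vehicle. The groups were well separated, with the highest tacrolimus library, replicate 3, below the lowest vehicle library, replicate 2. The means were 1.375 ± 0.620 and 4.86 ± 1.97 FPKM and the log2 difference was -1.29 with an SE of 0.28 (limma, adjusted p = 0.179).

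Gbp10 lay near the limit of detection, at 0.05, 0, 0.11 and 0 FPKM with tacrolimus and at 0.55, 0.05, 0.14 and 0.20 FPKM with vehicle. The groups overlapped, and the most that any library held was an estimated 31 fragments. Without a filter the log2 difference was -0.23 with an SE of 0.11 (limma, adjusted p = 0.533), or -0.12 without vehicle replicate 1. The values of Gbp6 and Gbp10 are uncertain as gene levels, because in GENCODE M21 67.3% of the 75-base windows in Gbp6 transcripts and 77.8% of those in Gbp10 transcripts also occur in other genes. Most of this sequence is shared with Gm43302, an annotated gene that spans both and shares exons with each. Gm43302 was at 0.03 to 0.50 FPKM with tacrolimus and 0.09 to 1.26 FPKM with vehicle.

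Gbp9 was at 0.60, 0.25, 0.30 and 0.45 FPKM with tacrolimus and at 3.73, 1.03, 2.05 and 1.07 FPKM with vehicle. Every tacrolimus library was below 1 FPKM and every vehicle library above it. The means were 0.40 ± 0.158 and 1.97 ± 1.26 FPKM and the log2 difference was -1.0 with an SE of 0.30 (limma, adjusted p = 0.195). The pseudocount of 1 matters most for such low levels: with a pseudocount of 0.1 the Gbp9 difference was -1.91.

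Gbp4 was the chromosome 5 gene with the widest vehicle spread. Its values were 1.89, 0.69, 1.01 and 1.05 FPKM with tacrolimus and 9.60, 1.99, 2.38 and 1.76 FPKM with vehicle. Vehicle replicate 1 held more than the other 3 vehicle libraries together, and vehicle replicate 4 lay below tacrolimus replicate 1. The log2 difference was -0.97 with an SE of 0.41 (limma, adjusted p = 0.267), and it was -0.52 without vehicle replicate 1. Gbp4, Gbp8 and Gbp9 overlap in the annotation and share about 60 exon bases, and 8.04% or fewer of the 75-base windows of each occur in another gene. For the other genes this share was 0.955% in Gbp2, 2.06% in Gbp3, 0.578% in Gbp5 and 11.3% in Gbp7.

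**Figure D3:**
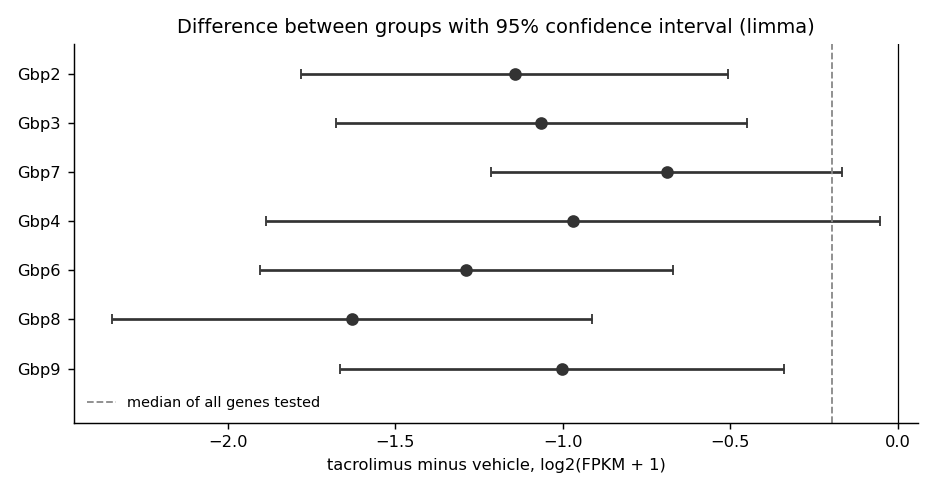
Points are the differences of the 7 genes that passed the filter, tacrolimus minus vehicle in log2(FPKM + 1) units (x axis), with 95% confidence intervals from limma; the dashed line is the median of all genes tested, -0.19. Every interval lies below 0, as it does for 15.8% of all genes tested, and the intervals of Gbp7 and Gbp4 cross the median of all genes. The intervals are not adjusted for the number of genes, and the adjusted p by limma ran from 0.179 to 0.267. Gbp9 passed the filter through the vehicle libraries alone, so nothing is read from the number of intervals below 0.

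In the fit without a filter over 28614 genes, 9 of 9 family genes were lower with tacrolimus and 6 had an unadjusted p under 0.05, where 8.87% of all genes were lower at that level. The family median was -1.0 on the log2 scale and that of all genes -0.05. Of the 13032 genes that passed the filter, 10.2% were lower without overlap. With vehicle replicate 1 left out as well, 9 of 9 were lower, 5 had an unadjusted p under 0.05, where 10.7% of all genes were lower at that level, and the family median was -0.75. In that fit 59.0% of all genes were lower.

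In the fit with the filter, 15.8% of all genes were lower at an unadjusted p under 0.05, a level that each of the 7 fitted family genes reached. Gbp9 had entered through the vehicle libraries alone, so nothing is read from the number of family genes in this fit. At an adjusted p under 0.05 limma called 0 of 13032 genes, or 0.0%, with 2056 lower and 208 higher at an unadjusted p under 0.05. A two-sided exact permutation test, with all 70 ways to assign the libraries, called 0 genes at an adjusted p under 0.05. It could call genes only if most of those tested had the smallest p it can give, 0.0286, so nothing is read from this. By this permutation test Gbp2, Gbp3, Gbp6, Gbp8 and Gbp9 each had p = 0.0286. Any gene whose groups do not overlap has this p, so it adds nothing to the absence of overlap given above. In this test 1334 of the 13032 genes, or 10.2%, were lower at p under 0.05. Most genes tested, 75.7%, were lower with tacrolimus, and the median of all differences was -0.19. With median-of-ratios scaling, which moved that median to 0.01, 49.1% of all genes were lower. At an unadjusted p under 0.05, 734 genes were lower and 744 higher. The differences of the fitted family genes then ran from -1.47 for Gbp8 to -0.52 for Gbp7, with an adjusted p by limma of 0.391 to 0.494.

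The order of the levels within the family differed between the groups in its leading genes. With vehicle the means ran, from the highest, Gbp8, Gbp6, Gbp3, Gbp7, Gbp2, Gbp4, Gbp9, Gbp5 and Gbp10. With tacrolimus the order was Gbp7, Gbp3, Gbp6, Gbp2, Gbp4, Gbp8, Gbp9, Gbp5 and Gbp10. In both orders every neighbouring pair overlapped in its range over libraries. Compared within each library, Gbp9, Gbp5 and Gbp10 held the last places in this order throughout. Among the genes above them, neighbours changed order between libraries of the same group, so their places are not separated by these data. Gbp8 stood first with vehicle and in place 6 with tacrolimus. The level of Gbp8 divided by that of Gbp7 was 0.502, 0.232, 0.765 and 0.468 in the tacrolimus libraries and 1.95, 0.667, 2.01 and 0.962 in the vehicle libraries. The ratio overlapped between the groups through vehicle replicate 2.

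The family has 2 further mouse genes outside the 9. Gbp2b, the neighbour of Gbp2 and the mouse gene long called Gbp1, was at 2.20, 0.08, 2.95 and 1.14 FPKM with tacrolimus and at 4.96, 2.76, 1.89 and 0.24 FPKM with vehicle. Its groups overlapped widely, and its log2 difference was -0.36 with an SE of 0.52 (limma, adjusted p = 0.723). Its window held 1 ISRE core, 137 bases before the start, in the stretch below.
Gbp2b, chr3:142594700-142594729: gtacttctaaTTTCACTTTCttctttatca
These core letters, TTTCACTTTC, are those found before Gbp2. Gbp11, annotated as a polymorphic pseudogene, was listed at 0 in every tacrolimus library and at 0.03 to 0.15 FPKM in the vehicle libraries.

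Ifng, the interferon gamma gene, was measured at 13.55, 2.21, 14.80 and 11.16 FPKM with tacrolimus and at 99.83, 18.14, 40.02 and 20.59 FPKM with vehicle. The groups did not overlap, and tacrolimus replicate 2 and vehicle replicate 1, the lowest and highest libraries for Gbp3, Gbp4, Gbp5, Gbp8 and Gbp9, were also the extremes for Ifng. Its log2 difference was -1.89 with an SE of 0.61 (limma, adjusted p = 0.202), or -1.40 without vehicle replicate 1 and -1.36 without tacrolimus replicate 2.

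Over the 8 libraries the correlation of each gene with Ifng on the log2 scale was positive for all 7 family genes that passed the filter. Pearson's r was 0.93 for Gbp3, 0.928 for Gbp8, 0.905 for Gbp9, 0.881 for Gbp4 and 0.873 for Gbp6, with exact permutation p from 7.44e-05 for Gbp8 to 0.00389 for Gbp6. For Gbp2 it was 0.662 and for Gbp7 0.618, with exact permutation p of 0.0693 and 0.0960. The value of Gbp2 turned on single libraries: it was 0.916 without tacrolimus replicate 2 and 0.383 without vehicle replicate 1. Differences between these correlations were not tested.

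An unadjusted p under 0.05 was found for Gbp3, Gbp4, Gbp6, Gbp8 and Gbp9, and for 10.2% of the 13031 genes tested. Gbp9 had entered the test through the vehicle libraries alone, where Ifng was also high, and nothing is read from the number of family genes. After Benjamini-Hochberg adjustment over the 13031 relations, 0.0% of genes were under 0.05, and the adjusted permutation p of the 7 genes ran from 0.129 for Gbp8 and Gbp9 to 0.617 for Gbp7. Spearman's rho was 0.976 for Gbp8, 0.952 for Gbp6, 0.929 for Gbp9, 0.905 for Gbp3, 0.833 for both Gbp2 and Gbp4 and 0.595 for Gbp7. The exact permutation p of rho ran from 3.97e-04 for Gbp8 to 0.132 for Gbp7, and the adjusted ones from 0.129 to 0.643.

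The relation was computed again without the 2 libraries farthest from the median of Ifng, tacrolimus replicate 2 and vehicle replicate 1. Pearson's r was then 0.929 for Gbp9, 0.897 for Gbp2, 0.860 for Gbp8, 0.778 for Gbp6, 0.741 for Gbp4 and 0.730 for Gbp3. For Gbp7 it was 0.145, so its relation rests on those libraries. With 6 libraries the adjusted permutation p was 1 for every family gene. The 720 orders give no p under 0.00139, so an adjusted p under 0.05 would need many genes at that p. The unadjusted permutation p was 0.00278 for Gbp2, 0.00417 for Gbp8 and 0.00972 for Gbp9. For the other fitted family genes it ran from 0.0514 for Gbp6 to 0.7875 for Gbp7. Of all 13031 genes, 348 were under 0.05. In tacrolimus replicate 2, Ifng was the lowest of all libraries while Gbp2 was the highest of its group.

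Within each group there are too few libraries for a correlation, so values were also centred on their group means. Centred, r was 0.911 for Gbp8, 0.872 for Gbp3, 0.800 for Gbp9, 0.792 for Gbp4 and 0.742 for Gbp6, against 0.170 for Gbp2 and 0.138 for Gbp7. The centred r was thus highest for Gbp8 and Gbp3 and lowest for Gbp2 and Gbp7, in these 8 libraries. That order did not hold in the values without tacrolimus replicate 2 and vehicle replicate 1. There r, not centred, was 0.897 for Gbp2 and 0.730 for Gbp3, and the order was not tested. With Ifng as a covariate in limma, the tacrolimus difference was -1.02 for Gbp2, -0.83 for Gbp8, -0.77 for Gbp6, -0.62 for Gbp7, -0.45 for Gbp3, -0.41 for Gbp9 and -0.03 for Gbp4, none at an adjusted p under 0.05. Neither Ifng nor the T cell marker level overlapped between the groups. Treatment, Ifng and T cell content therefore cannot be told apart here, and the relation is not particular to Ifng.

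**Figure D4:**
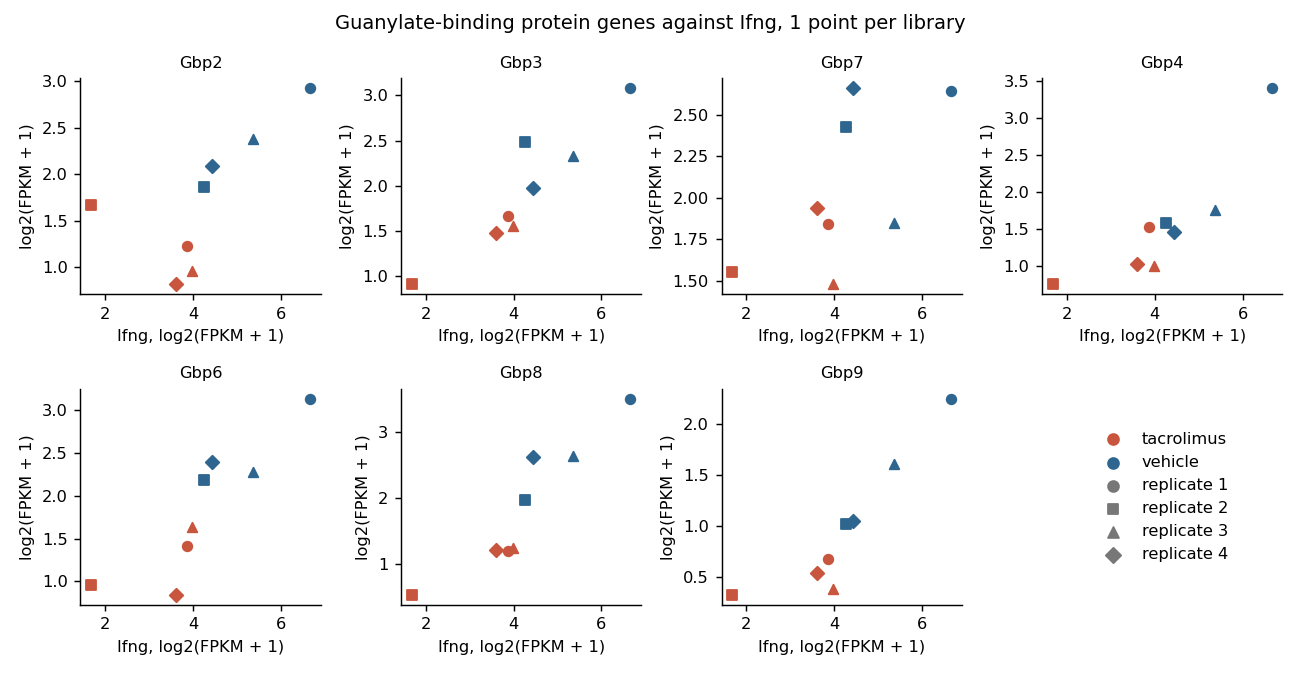
Each point is 1 of the 8 libraries, with Ifng on the x axis and 1 of the 7 fitted GBP genes on the y axis, both as log2(FPKM + 1); colours are the groups and shapes the replicate numbers. Gbp8 is higher where Ifng is higher (r = 0.928), while Gbp7 is spread (r = 0.618) and tacrolimus replicate 2 stands off the trend of Gbp2.

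Among themselves the 7 genes were correlated in all 21 pairs, with Pearson's r from 0.639 to 0.946 and a median of 0.856 over the 8 libraries, which share both treatment groups. Of 13025 other genes, those most like the mean of the 7 were Zbp1, a sensor of left-handed nucleic acids (r = 0.994), Txk, a T cell tyrosine kinase (0.989), H2-T22, a nonclassical class I molecule (0.988), Lfng, which modifies Notch receptors (0.985), and Shisa5 (0.983). Zbp1 itself was at 3.12 ± 0.640 FPKM with tacrolimus and 15.3 ± 11.7 FPKM with vehicle. Ifng stood at rank 406 of these genes with r = 0.904, the T cell marker Cd8a at rank 474 with r = 0.896 and Gbp2b at rank 3289 with r = 0.508. These likenesses are over the same 8 libraries and were not tested. The 21 pairs and the mean of the 7 include Gbp9, which had passed the filter through the vehicle libraries alone. Txk, at a mean of 0.3075 FPKM with tacrolimus, had passed it in the same way. Genes that enter so are lower with tacrolimus by the filter itself, which favours a likeness between them. Nothing is therefore read from the place of Txk or from the number of correlated pairs.

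Genes of the pathway that controls the family were mostly lower with tacrolimus as well, with none at an adjusted p under 0.05. Of the 16 listed interferon gamma ligand, receptor and signaling genes, 15 were tested, 15 were lower, 12 of them at an unadjusted p under 0.05, and 9 had groups that did not overlap. Ifng itself is in each of these counts. Over all 13032 genes tested, 75.7% were lower, 15.8% were lower at an unadjusted p under 0.05 and 10.2% were lower without overlap. The same shares stand beside the counts of the lists that follow. The median difference of this list was -0.88. Irf9, a DNA-binding factor of interferon signaling, was at 6.04 ± 0.664 and 11.9 ± 0.705 FPKM (log2 difference -0.87). Irf8, an interferon-induced factor of myeloid and T cells, was at 6.30 ± 2.0 and 16.7 ± 7.03 FPKM (-1.23), and Socs3, a feedback inhibitor of JAK kinases, at 13.7 ± 2.40 and 29.7 ± 7.82 FPKM (-1.04).

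For type I interferon, 4 of 7 listed genes were tested, 4 were lower, 3 at an unadjusted p under 0.05 and 2 without overlap, with a median of -0.45. The receptor chain Ifnar1 differed by -0.76, the kinase Tyk2 by -0.51 and the receptor chain Ifnar2 by -0.39. The ligand Ifnb1 was at 1.37 to 2.72 FPKM with tacrolimus and at 0.86 to 16.68 FPKM with vehicle, a wide overlap in which vehicle replicate 1 held the top value. Its difference was -0.37, and it reversed to 0.36 without that library. Ifna2, Ifna4 and Ifna5 were listed at 0 in every library.

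The immunity-related GTPases, another interferon-induced family that acts with GBPs on vacuoles, had 8 of 8 genes tested and lower, 7 at an unadjusted p under 0.05 and 7 without overlap. Among these Gm12250, at 0.27 to 0.41 FPKM with tacrolimus and 1.07 to 2.40 FPKM with vehicle, passed the filter through the vehicle libraries alone. For that reason nothing is read from these counts. The median of the 8 genes, Gm12250 included, was -1.15 on the log2 scale. Ifi47 was at 8.40, 9.89, 11.10 and 8.97 FPKM with tacrolimus and 32.61, 23.05, 23.67 and 19.45 FPKM with vehicle. No library came near the other group, and the difference of -1.26 with an SE of 0.18 had an adjusted p of 0.139 by limma. This was the smallest adjusted p of the genes tested, and several genes, Igtp among them, were tied at it. Igtp was at 5.65 ± 1.04 and 15.1 ± 2.68 FPKM (-1.27), Iigp1 at 1.235 ± 0.213 and 4.27 ± 1.03 FPKM (-1.22) and Tgtp1 at 1.31 ± 0.995 and 6.25 ± 2.77 FPKM (-1.66).

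Other GTPases of the dynamin superfamily, not known as interferon targets, lay near the median of all genes. Of 10 listed, 9 were tested, 8 lower and 1 higher, with 1 lower at an unadjusted p under 0.05, 1 lower without overlap (Dnm2) and a median of -0.13. The endocytic GTPase Dnm2 differed by -0.54, the mitochondrial fusion GTPase Mfn2 by -0.51, Dnm1 by -0.24 and the endoplasmic reticulum GTPase Atl3 by -0.23. Without vehicle replicate 1 Dnm1 was at -0.50 and Atl3 at -0.07, and Dnm1 was at -0.40 without tacrolimus replicate 2.

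Genes whose products act with GBPs were also listed. Of 10 inflammasome and pyroptosis genes 9 were tested and lower, 1 at an unadjusted p under 0.05 and 0 without overlap, with a median of -0.64. The DNA sensor Aim2 differed by -1.62, the interleukin gene Il1b by -1.26, Nlrp3 by -0.98 and Casp4 by -0.97, each with vehicle replicate 1 the highest library. Without it they were at -1.01, -0.56, -0.59 and -0.53 in the same order. Genes listed for prenylation, a lipid modification of members such as Gbp2 and Gbp5, had 5 of 5 lower. Of these, 2 were at an unadjusted p under 0.05 and 2 were without overlap, and the list median was -0.39. In that list Pggt1b differed by -0.49, Fntb by -0.40 (-0.65 without vehicle replicate 1), Rce1 by -0.39 and Icmt by -0.25. Autophagy conjugation genes, which help GBPs to reach vacuoles, had 10 of 10 genes lower, 0 at an unadjusted p under 0.05 and 1 (Gabarap) without overlap, with a median of -0.18, next to the -0.19 of all genes. Atg7 differed by -0.39, Atg5 by -0.25, Gabarap by -0.23 and Atg3 by -0.22.

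**Figure D5:**
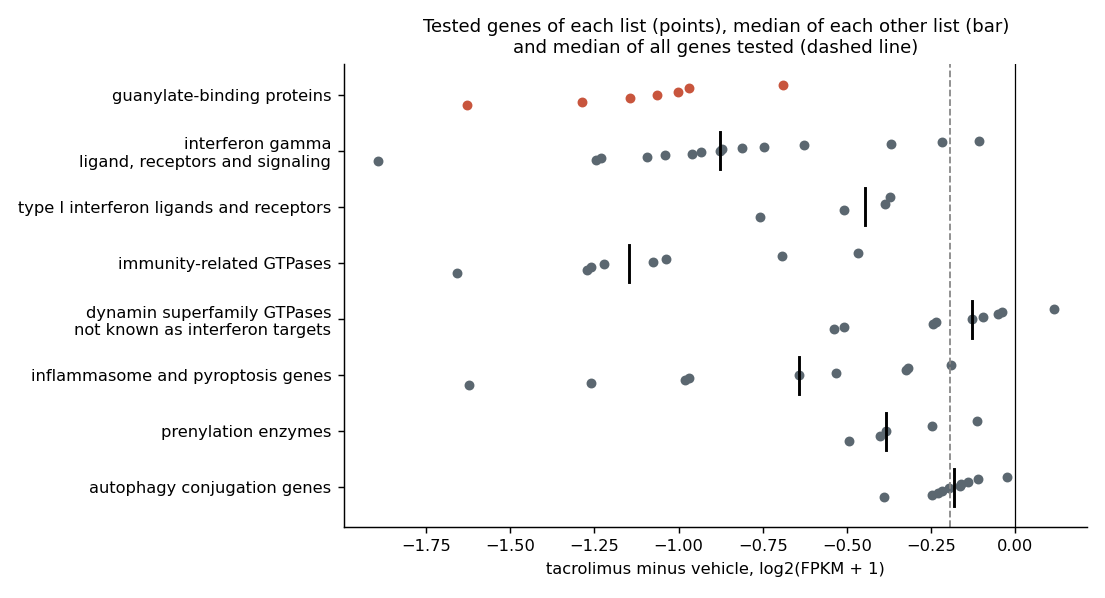
Points are single genes of each list (rows) by their difference, tacrolimus minus vehicle in log2(FPKM + 1) units (x axis); black bars are list medians, not drawn for the guanylate-binding proteins, and the dashed line is the median of all genes tested, -0.19. The 7 fitted GBP genes lie between -1.63 and -0.69 and the immunity-related GTPases between -1.66 and -0.47, while the other dynamin relatives and the autophagy genes lie around the dashed line.

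The GBP differences were smaller in size with the T cell or macrophage marker level of each library in the fit. With the T cell marker level as a covariate they were -0.99 for Gbp2, -0.81 for Gbp8, -0.76 for Gbp6, -0.46 for Gbp7, -0.44 for Gbp3, -0.40 for Gbp9 and 0.07 for Gbp4. With the macrophage marker level they were -1.09 for Gbp8, -1.08 for Gbp2, -0.87 for Gbp6, -0.75 for Gbp9, -0.74 for Gbp3, -0.36 for Gbp7 and -0.35 for Gbp4. Gbp2 had the lowest difference in the T cell fit and the next to lowest in the macrophage fit, while Gbp4 was nearest to 0 in both. Since T cell marker levels did not overlap between the groups, treatment and T cell content cannot be told apart here, and the part of the macrophage level in the result was not tested.

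With the melanoma marker level as a covariate, 6 of the 7 filtered GBP genes passed an adjusted p under 0.05 in limma, where 2.42% of all filtered genes were called lower. Gbp9 is among the 6 and had passed the filter through the vehicle libraries alone, so nothing is read from this number. Gbp8 was then at -1.91 (adjusted p = 0.0253), Gbp6 at -1.54 (0.0253), Gbp3 at -1.28 (0.0339), Gbp9 at -1.25 (0.0366), Gbp4 at -1.38 (0.0401) and Gbp2 at -1.32 (0.0458), and Gbp7 was at -0.68 (0.206). With the replicate number as a block, limma called 0.882% of genes lower, Gbp8 the only family gene among them, at an adjusted p of 0.0412.

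Depth was similar between libraries, at an estimated 15400000 to 19600000 fragments, so low levels rest on few fragments. By this estimate the library with the least held 26 fragments of Gbp2, 34 of Gbp3, 47 of Gbp4, 48 of Gbp6, 166 of Gbp7, 22 of Gbp8, 19 of Gbp9, 1 of Gbp5 and 0 of Gbp10. The library with the most held 253, 307, 698, 527, 478, 545, 303, 100 and 31 of them in the same order. Gbp7 was thus the best counted gene at its lowest, and no library held more than 100 fragments of Gbp5 or 31 of Gbp10.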

How the data were processed

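RNA sequencing of 8 libraries, 4 per group, was used, with groups and replicate numbers from the sample titles. The deposited files hold 1 value per gene. No header or label names the unit, which was inferred to be FPKM, values that the authors had scaled for transcript length and library size before they were deposited. They sum to 890182 to 926808 per library. Low values fell at steps that gave the depth estimate. The tools HISAT2 2.1.0, RSEM 1.3.1 and DESeq2 1.24.0 and the build GRCm38.p6 are listed, without roles, in the submitters' processing notes. Gene symbols came from the Ensembl identifiers, of which 346 had no symbol.

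Values were compared as log2(FPKM + 1) by limma 3.58.1 in R 4.3.3 (lmFit, eBayes with a variance trend, treatment as the only term) over the 13032 genes at 1 FPKM or more in at least 4 libraries, with Benjamini-Hochberg adjustment over all of them. Correlations with Ifng used all 40320 orders of the libraries, or 576 within groups, in Python 3.11.15. The steps were tested on simulated data. Members and lists were chosen with earlier results of these data known. All 9 genes, Ifng, up to 4 genes per list with the smallest unadjusted p and the 5 genes most like the family were named, and other listed genes stand in the counts only. Some results of genes that the rule takes are not reported here. Alternatives were pseudocounts, filters, scalings, variance settings, library weights, covariates, the replicate block, a permutation test and each library left out. At most 1.69% of values were identical in a pair of libraries.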

Additional observations from a re-analysis of the deposited data

Results flagged for a closer look

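Of 20 groups of 4 libraries checked (the 9 GBP genes and Ifng, each with tacrolimus and with vehicle), 4 had 1 library whose gap to the next exceeded Dixon's 95% critical share of the whole range; chance flags about 1 in 20 groups. Vehicle replicate 1 was such a library for Gbp4 at 9.60 FPKM, where the other vehicle libraries held 1.76 to 2.38 FPKM. It was one as well for Gbp5 at 1.69 FPKM, against 0.23 to 0.32 FPKM, and for Gbp6 at 7.78 FPKM, against 3.56 to 4.27 FPKM. For Gbp8, tacrolimus replicate 2 lay apart at 0.45 FPKM, below the 1.3 to 1.37 FPKM of the other tacrolimus libraries. The library groups of Gbp6 and Gbp8 did not overlap with these libraries included.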

How the results depend on the processing

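The number of GBP genes called by limma at an adjusted p under 0.05 was 0 in the main comparison, 1 with the replicate number as a block and 6 with the melanoma marker covariate, and 0 to 0 with each library left out in turn. Over all genes it was 0, then 121 with the replicate block, 330 with the melanoma covariate and 0 to 1 with a library left out. Over the other lists it was 0, 6 and 14. The cause was not tested. The replicate numbers were not taken as pairing the libraries. Same-numbered libraries deviated together with r of 0.215, 0.277, -0.02 and -0.02 for replicates 1 to 4. The vehicle library most like it had the same number for tacrolimus replicates 1 and 2, but not for 3 and 4. Whether the numbers pair the libraries was not tested. The gene called without vehicle replicate 1 was Gm37167, at 0 in the other vehicle libraries. Chosen after seeing the data, fits without vehicle replicate 1 called 2 genes with no filter (Gm7180 and Gm8850) and 2 with tacrolimus replicate 2 left out too (Gm37167 and Gm44350), named after their values were seen, and 0 GBP genes. Of the log2 differences of the GBP genes under the alternatives, 168 kept direction and side of the threshold, 7 came to pass it and 1 reversed, that of Gbp4, to 0.074 with the T cell marker covariate. All 112 correlations with Ifng stayed positive and short of the adjusted threshold. The filter of 1 FPKM in all 8 libraries left only Gbp7. Estimated depth limits Gbp5 and Gbp10.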
